A study of Mus musculus with 3 samples.

Results

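The tiles described here are the 1-kb stretches of the mouse genome whose DNA was recovered with the methyl-CpG-binding domain in every one of 3 libraries of proximal colon organoids. A tile joins 5 consecutive 200-bp bins counted from position 1 of its chromosome. Its normalised coverage is the mean over those bins of 2 raised to the deposited log2 value, after the lowest value of that library is taken away. A tile was kept where this coverage was at least 0.5 in each library, which 38531 of 2462738 tiles on chromosomes 1 to 19 met. They span 38.5 Mb and make up 1.56% of the tiles.

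The organoids were derived from crypts of the proximal colon of male mice about 40 days old. The mice were heterozygous for a silent Braf V600E allele that becomes active after Cre recombination, so the control organoids carry this allele too, not activated. The Braf Base medium library came from organoids in which lentiviral Cre had activated the oncogene and which were then selected for growth in Base medium, a medium without the niche factors that stem cells use. The Braf full medium library came from organoids with the activated oncogene in medium holding Wnt3a, R-spondin, Noggin and EGF, and the EV library from organoids given the lentiviral backbone without Cre in that same full medium. All were cultured for 5 months and then grown for a further 3 weeks. Each group holds 1 library, so differences between libraries are descriptions with no measure of replicate spread and no test, and the labels used here do not say whether the libraries share a mouse or a culture. Medium, selection in that medium and Cre therefore cannot be told apart from any other difference between these cultures.

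DNA methylation in mammals sits mostly on the cytosine of CpG pairs. Most of the genome is poor in CpGs and methylated, while many gene starts lie in CpG-rich islands that stay unmethylated in most tissues. Germline genes with CpG-rich starts and the control regions of imprinted genes, which are expressed from either the maternal or the paternal allele, are textbook exceptions that carry methylation in somatic cells. In MBD-seq a methyl-CpG-binding protein captures fragments, and capture grows with the number of methylated CpGs on the fragment, so coverage reflects both the methylation and the CpG density of a tile, and the number of genome copies.

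The first 6 promoter sequences below belong to genes that start in such tiles, and those of Dapk1 and Fkbp6 reach beyond the start tile. They are the 250 bases before the annotated start of the 6 genes with the most CpGs among listed genes that start in a covered tile, as RefSeq gives them for GRCm38.p6, written 5′ to 3′ on the gene's strand with every CpG in capitals. The last pair, Epcam and Krt8, are epithelial genes that start in tiles with almost no coverage, chosen for contrast after their values were seen.
Dapk1, chr13:60601961-60602210, forward strand: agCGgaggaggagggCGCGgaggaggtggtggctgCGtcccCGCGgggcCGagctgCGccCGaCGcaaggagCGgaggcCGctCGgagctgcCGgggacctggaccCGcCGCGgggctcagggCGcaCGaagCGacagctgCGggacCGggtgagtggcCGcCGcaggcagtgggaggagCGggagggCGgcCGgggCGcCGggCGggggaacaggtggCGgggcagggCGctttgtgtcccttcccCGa
Ddx4, chr13:112652311-112652560, reverse strand: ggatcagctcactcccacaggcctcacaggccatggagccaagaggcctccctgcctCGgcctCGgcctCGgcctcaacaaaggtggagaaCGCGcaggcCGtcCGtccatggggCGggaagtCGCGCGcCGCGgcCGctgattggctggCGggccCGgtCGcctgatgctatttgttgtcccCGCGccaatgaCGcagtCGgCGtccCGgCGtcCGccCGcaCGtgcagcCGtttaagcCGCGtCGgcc
Igf2r, chr17:12769707-12769956, reverse strand: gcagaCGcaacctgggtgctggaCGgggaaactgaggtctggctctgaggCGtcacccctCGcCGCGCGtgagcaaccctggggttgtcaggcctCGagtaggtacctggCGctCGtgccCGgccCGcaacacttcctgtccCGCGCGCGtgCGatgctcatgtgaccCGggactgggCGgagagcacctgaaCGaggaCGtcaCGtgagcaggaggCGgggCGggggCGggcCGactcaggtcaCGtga
Fkbp6, chr5:135349914-135350163, reverse strand: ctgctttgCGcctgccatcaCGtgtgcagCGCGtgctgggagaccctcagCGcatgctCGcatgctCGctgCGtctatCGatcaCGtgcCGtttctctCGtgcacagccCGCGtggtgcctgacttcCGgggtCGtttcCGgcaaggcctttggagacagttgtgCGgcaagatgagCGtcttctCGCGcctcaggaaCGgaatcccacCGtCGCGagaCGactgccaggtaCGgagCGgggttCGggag
Phox2a, chr7:101818063-101818312, forward strand: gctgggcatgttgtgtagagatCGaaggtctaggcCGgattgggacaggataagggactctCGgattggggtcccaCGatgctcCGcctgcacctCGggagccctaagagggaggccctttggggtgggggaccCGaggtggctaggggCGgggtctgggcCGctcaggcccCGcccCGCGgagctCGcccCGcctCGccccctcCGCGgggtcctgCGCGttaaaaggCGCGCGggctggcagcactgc
Stag3, chr5:138280259-138280508, forward strand: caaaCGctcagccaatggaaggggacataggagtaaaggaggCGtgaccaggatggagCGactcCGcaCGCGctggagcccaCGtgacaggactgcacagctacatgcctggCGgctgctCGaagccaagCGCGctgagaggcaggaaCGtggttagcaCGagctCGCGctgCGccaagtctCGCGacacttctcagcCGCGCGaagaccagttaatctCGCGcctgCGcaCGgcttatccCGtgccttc
Epcam, chr17:87635729-87635978, forward strand: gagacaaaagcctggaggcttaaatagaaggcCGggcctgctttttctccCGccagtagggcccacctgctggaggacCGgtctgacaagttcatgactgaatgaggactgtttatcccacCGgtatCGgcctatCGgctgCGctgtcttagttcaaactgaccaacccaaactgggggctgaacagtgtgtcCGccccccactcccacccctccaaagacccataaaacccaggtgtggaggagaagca
Krt8, chr15:102004343-102004592, reverse strand: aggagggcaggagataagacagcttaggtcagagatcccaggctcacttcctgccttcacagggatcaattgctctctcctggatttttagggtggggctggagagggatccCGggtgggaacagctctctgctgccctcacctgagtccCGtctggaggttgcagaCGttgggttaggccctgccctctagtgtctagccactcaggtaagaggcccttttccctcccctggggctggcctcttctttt

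Dapk1, which encodes a death-associated kinase, has 33 CpGs in the 250 bases shown, and its start tile had a coverage of 5.03 in Braf Base medium, 3.10 in Braf full medium and 0.763 in EV. Ddx4, a germ cell RNA helicase, has 31 CpGs there, with 6.54 in Braf Base medium, 5.12 in Braf full medium and 5.46 in EV. Igf2r, an imprinted receptor for insulin-like growth factor 2, has 27 CpGs and had 5.87, 3.96 and 3.94 in the order Braf Base medium, Braf full medium and EV, an order kept wherever 3 coverage values are given together. The levels in these 3 tiles were alike across libraries for Ddx4 and set the EV library apart for Dapk1. Fkbp6, needed for male meiosis, has 29 CpGs and had 3.11, 3.12 and 3.62. Phox2a, a transcription factor of autonomic neurons, has 22 CpGs and had 2.85, 3.21 and 2.48. Stag3, a meiotic cohesin subunit, has 26 CpGs and had 3.05, 1.72 and 1.31. Epcam, an epithelial adhesion molecule, has 8 CpGs in its 250 bases and a start tile at 0.00741, 0 and 0. Krt8, a keratin of simple epithelia, has 3 and its start tile stood at 0.0222, 0.108 and 0.171. The 6 genes were taken from those with a covered start tile and Epcam and Krt8 for their low coverage, so the contrast is set by the choice.

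Total read overlaps with bins were 14850571 in Braf Base medium, 20914446 in Braf full medium and 12530155 in EV, which corresponds to an estimated 5985362, 8648828 and 5041726 reads. The Braf full medium library had no overlap in 43.3% of bins, against 83.0% in Braf Base medium and 87.2% in EV, so its background stood apart. More than 10 kb from any tile covered in a library, 1806798 tiles had a mean coverage of 0.00739 in Braf Base medium, 0.0434 in Braf full medium and 0.00828 in EV. Coverage of 0.5 corresponds to about 27.2 estimated reads per tile in Braf Base medium, 21.1 in Braf full medium and 20.0 in EV.

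The rule requires every library to reach the minimum, so the levels below are a description. The median coverage of the tiles was 1.36 in Braf Base medium, 1.43 in Braf full medium and 1.62 in EV, with 5th to 95th percentiles of 0.571 to 5.24, 0.608 to 5.69 and 0.642 to 5.90. Over all tiles the median was 0 in Braf Base medium, 0.0392 in Braf full medium and 0 in EV. The covered tiles held 69.3% of all coverage in Braf Base medium, 39.3% in Braf full medium and 68.9% in EV. The lower share in Braf full medium goes with its broader background, and the part of that background in the result was not tested. The lowest of the 3 values was the one in Braf Base medium in 56.6% of tiles, in Braf full medium in 26.2% and in EV in 17.2%.

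**Figure D1:**
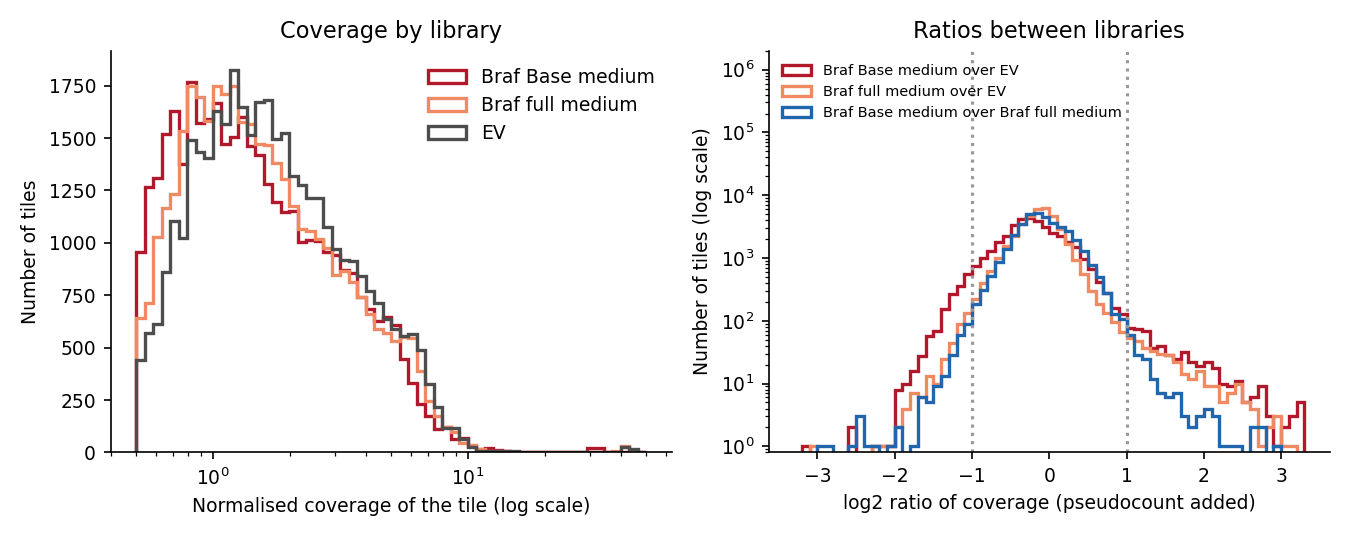
Left, the number of tiles (y axis) by normalised coverage (x axis, log scale) in each library, for the 38531 tiles covered in all 3 libraries. Right, the number of tiles (log scale) by log2 ratio of coverage between 2 libraries, with a pseudocount added; dotted lines mark log2 ratios of 1 and -1. The coverage curves start at 0.5 by the rule and have medians of 1.36, 1.43 and 1.62, and the ratio of Braf Base medium over EV is the widest.

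Of the tiles that reached 0.5 in at least 1 library, 57792 in all, these made up 66.7%. A further 8605 tiles reached it in 2 libraries and 10656 in 1. Of the tiles covered in each library they made up 87.2% in Braf Base medium, 81.2% in Braf full medium and 74.4% in EV. The threshold falls on a continuum: 2353 of these tiles had a lowest library between 0.5 and 0.55, and 2808 other tiles had a lowest library between 0.45 and 0.5. Just inside stood a tile of Rab23, a small GTPase gene, on chromosome 1 with 0.593 in Braf Base medium, 0.519 in Braf full medium and 0.502 in EV, together with intergenic tiles near Crisp4 (0.556, 0.559 and 0.502) and Gm30160 (0.571, 0.617 and 0.502). Just outside stood tiles in Pfkl, a phosphofructokinase gene (0.645, 0.4998 and 0.562), in Prrc1 (0.608, 0.4998 and 0.622) and beside Jph1 (0.585, 0.4998 and 0.793), each missing the minimum in Braf full medium alone.

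The comparison of each pair of libraries uses the log2 ratio of coverage with a pseudocount of 0.0597 added to both, which is the average of the 3 libraries' coverage per bin. A tile was called higher or lower at a log2 ratio of at least 1 or at most -1. For Braf Base medium over EV, 526 tiles were higher and 1532 lower; over all 55842 tiles covered in either library, 4.92% were called higher and 13.2% lower. For Braf full medium over EV, 351 tiles were higher and 337 lower, against 4.2% and 5.33% of 55877 tiles. For Braf Base medium over Braf full medium, 168 were higher and 224 lower, against 2.48% and 4.38% of 51001 tiles. Requiring coverage in all libraries leaves out the tiles with the largest differences, so the lower shares are set by the rule and nothing is read from them. The 95% counting interval of the coverage ratio left out 1 for each of the called tiles. Intervals are exact binomial (Clopper-Pearson) and account for counting error alone. The rule sets this outcome, because even at the minimum 27 reads against 20 leave a ratio between 0.537 and 1.87. Nothing about the calls is read from it.

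The median log2 ratio was -0.23 for Braf Base medium over EV, -0.12 for Braf full medium over EV and -0.10 for Braf Base medium over Braf full medium. Ratios stayed within 0.5 on the log2 scale in 71.9%, 86.3% and 86.0% of the tiles, in that order. The first comparison and the second share the EV library, and the last shares both Braf libraries with them. Across the 38531 tiles, which share their libraries and lie next to each other in the genome, Pearson's r of log2 coverage was 0.877, 0.933 and 0.933 in the same order. Setting the libraries to equal totals moved the median to -0.056 for Braf Base medium over EV, to -0.78 for Braf full medium over EV and to 0.73 for Braf Base medium over Braf full medium, so the sizes of these medians, and the direction of the last, depend on the scaling. Equal totals gave 701 tiles higher and 641 lower for Braf Base medium over EV, 101 and 5983 for Braf full medium over EV, and 6807 and 14 for Braf Base medium over Braf full medium, so the balance of higher and lower calls in all 3 comparisons depends on it too.

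Several of the called tiles lay at gene starts. Of the 526 tiles higher in Braf Base medium than in EV, 83.8% lay in a gene. Within 1 kb of either end of a protein-coding gene, its start or its far end, lay 44.9%, and 104 held a protein-coding start. Their promoters had a median of 22 CpGs in 300 bases. Of the 1532 lower tiles, 42.8% lay in a gene, 4.57% within 1 kb of an end, and 14 held a start, with a median of 11.5 CpGs. Tiles higher in Braf full medium than in EV had 80.6% in a gene, 44.7% near an end and 74 starts, while tiles lower there had 64.1%, 13.1% and 10. Over all 38531 tiles the shares were 54.2% and 8.28%, with 609 starts. The rule used these same coverage values, so the shares describe the called tiles and were not tested.

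The 5 largest ratios of Braf Base medium over EV were at tiles of Fads3, a fatty acid desaturase family gene, Sowaha, Kcnk9, a potassium channel gene, Slc27a3, a fatty acid transport family gene, and Pcdh1, a protocadherin. Fads3 (chr19:10041001-10042000) had 5.96 in Braf Base medium, 4.76 in Braf full medium and 0.562 in EV, a ratio of 10.6 for Braf Base medium over EV (95% interval 6.80 to 16.6). Kcnk9 (chr15:72546001-72547000) had 6.34, 1.95 and 0.622, and Slc27a3 (chr3:90389001-90390000) had 14.3, 8.41 and 1.48. Sowaha (chr11:53479001-53480000) had 5.53, 4.97 and 0.522, and Pcdh1 (chr18:38185001-38186000) had 6.12, 4.83 and 0.612. In each the EV library was by far the lowest, and the Braf full medium value lay below that of Braf Base medium. The smallest ratio was at Mpp7, a membrane scaffold gene (chr18:7609001-7610000), with 0.519, 0.578 and 5.20 and a ratio of 0.0997 (0.0643 to 0.148). Then came Gm40237, a lncRNA, with 2.38, 5.13 and 14.5 at the first tile and 3.10, 5.58 and 15.2 at the neighbouring tile, an intergenic tile near Vmn1r112 (0.6001, 1.68 and 3.81) and a tile of Hoxd3, a homeobox gene (0.778, 1.02 and 3.604).

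For Braf full medium over EV the largest ratios were again at Sowaha (9.52, interval 6.05 to 15.7) and Fads3 (8.47, 5.38 to 13.4), at Amotl1, an angiomotin-like gene (chr9:14614001-14615000), with 7.85, 6.42 and 0.803, and at 2 neighbouring tiles of the lncRNA 2700054A10Rik. That lncRNA, at chr17:13551001-13553000, had 1.22, 7.55 and 0.843 at the first tile and 1.39, 10.1 and 1.23 at the second, so the Braf full medium library alone was high there. The smallest ratios after Mpp7 were at Pcdh8, a protocadherin (4.34, 1.40 and 7.09), Rbp2, an intestinal retinol-binding protein (2.46, 0.549 and 2.66), Camta1, a transcription activator (1.24, 0.637 and 2.86), and Msi1, an RNA-binding protein of stem cells (1.956, 0.833 and 3.48). Camta1 and Pcdh8 lie in segments described below. For Braf full medium over EV, the background relative to the whole genome was -1.74 in the segment of Camta1 and 0.055 in that of Pcdh8.

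Between the 2 media, the largest ratios of Braf Base medium over Braf full medium were at Dmrta2, a transcription factor gene (5.76 in Braf Base medium, 0.676 in Braf full medium and 2.10 in EV), Phyhipl (6.71, 0.931 and 1.36), Skor2, a corepressor (4.80, 0.666 and 1.36), Ldah and Gdf7, which share a tile (3.63, 0.519 and 0.572), and Dchs2, an atypical cadherin whose tile overlaps Gm10710 (4.21, 0.617 and 0.582). Dmrta2 gave a ratio of 8.52 (5.73 to 12.8). The smallest ratios were at an intergenic tile near Mrgprd (0.556, 4.78 and 0.713), both tiles of 2700054A10Rik, an intergenic tile far from Fgf14 (1.07, 6.01 and 1.06) and the pseudogene Gm20590 (1.0002, 5.55 and 1.12). In the low group the Braf full medium library was the high one in each tile.

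The tiles mostly formed short runs. The 38531 tiles made up 27780 runs of adjacent tiles, of which 19079 (68.7%) were single tiles, 7122 were pairs, 1324 were triples and 255 held 4 or more. In the tile below a covered tile, the median coverage was 0.0741 in Braf Base medium, 0.127 in Braf full medium and 0.110 in EV, and in the tile above 0.0741, 0.127 and 0.100. The neighbouring tile was itself covered in all 3 libraries in 27.9% of cases. The share was 6.63% at 3 kb, then 7.30% at 4 kb and 7.32% at 5 kb, and 3.35% at 8 kb, so it did not fall evenly with distance.

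The longest run was 40 tiles at chr9:2999001-3039000, where only the microRNA gene Mir101c is annotated, with mean coverage of 30.1 in Braf Base medium, 39.3 in Braf full medium and 40.4 in EV. The next lay in Flg, which encodes the skin barrier protein filaggrin, where 13 tiles averaged 9.36, 7.24 and 7.23 and no tile was below 5.73 in any library. Plec, which encodes the cytolinker plectin, had 12 tiles at 6.56, 5.52 and 5.43, and Ahnak2 10 tiles at 11.4, 12.05 and 11.5. An intergenic run of 11 tiles at chr3:6297001-6308000 averaged 1.88, 2.76 and 3.43, lowest in Braf Base medium, and another of 9 tiles at chr12:20153001-20162000 averaged 0.904, 1.12 and 1.22. Spen, a transcriptional repressor gene, and Nbeal2, needed for platelet granules, each had a run of 9, with 2.78, 3.03 and 3.15 in Spen and 1.95, 1.70 and 1.69 in Nbeal2. Braf Base medium was the highest library in Flg, Plec and Nbeal2, and the lowest in Ahnak2, in Spen and in both intergenic runs. Flg lies in a segment of chromosome 3 where the background was also higher in Braf Base medium, as described below.

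A set of 49 tiles at 4 places exceeded 20 times the median of the covered tiles in at least 1 library. These lay at chr9:3000001-3038000 (38 tiles), in Sfi1 on chromosome 11 (1 tile), at chr14:19416001-19420000 (4 tiles) and at chr17:39843001-39849000 over Rn18s-rs5 and AY036118 (6 tiles), annotated as a pseudogene and a lncRNA. They held 2.01% of the covered tiles' coverage in Braf Base medium, 2.48% in Braf full medium and 2.37% in EV. The highest tile of each library had an estimated 1941 reads in Braf Base medium, 1958 in Braf full medium and 1914 in EV, where 2000 distinct read starts exist on both strands, and the sources used here do not say whether duplicate reads were removed. No repeat annotation was used here, so the number of genome copies behind these places was not measured. In overlaps, the highest tile had 4817 in Braf Base medium, 4735 in Braf full medium and 4757 in EV, so its overlaps were nearly equal, and the difference in normalised coverage there follows the libraries' values per overlap (0.0370, 0.0490 and 0.0502).

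After those, the 8 tiles with the highest lowest-library coverage included 2 intergenic tiles at chr2:98662001-98663000 (19.2, 26.3 and 24.9) and chr2:98666001-98667000 (18.9, 26.2 and 25.9). A tile where Cmss1 and Filip1l overlap (chr16:57391001-57392000) had 18.2, 21.2 and 21.3, and another of Sfi1, a centrin-binding protein gene, had 16.8, 21.2 and 22.8. The others lay near LOC115490388 (14.97, 17.4 and 17.98), at the pseudogenes Vmn2r-ps16 and Gm13241 (15.7, 14.96 and 17.2), in Mdga2 (14.5, 18.9 and 18.4) and in Ahnak2 (14.1, 13.9 and 13.9). In 6 of these 8 tiles Braf Base medium was the lowest library.

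Set against the genome, 54.2% of the tiles lay inside an annotated gene, against 48.3% of all tiles, and 47.0% inside a protein-coding gene, against 40.0%. Within 1 kb of either end of a protein-coding gene, start or far end, lay 8.28%, against 4.41% of all tiles. A protein-coding start was held by 1.58%, against 0.734%. Tiles covered in only 2 libraries were more often near an end (13.8%) and held a start more often (4.50%), and tiles covered in 1 library gave 13.7% and 4.35%. The tiles covered in all 3 libraries were thus nearer to the genome-wide shares than those that missed the minimum in 1 or 2 libraries, a difference that was not tested.

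Position along the gene was read in 10549 protein-coding genes of at least 10 kb with a RefSeq promoter. Genes without a promoter in use, including those on chromosome 18, were left out. The share of tiles covered in all 3 libraries was 1.43% in the first 5% of the gene length. This share was 0.993% between 5 and 10%, and 3.07% in the last 5%. It grew towards the end of the gene. At the tile of the gene start the share was 2.51%, and 1.14% at 1 kb upstream. Around the far end of the gene, here called the gene end, it was 5.30% at 1 kb before the end. It was 2.64% at the end tile and 1.94% at 2 kb after it. Among these values the share was highest just before the gene end and lowest between 5 and 10% of the gene length.

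**Figure D2:**
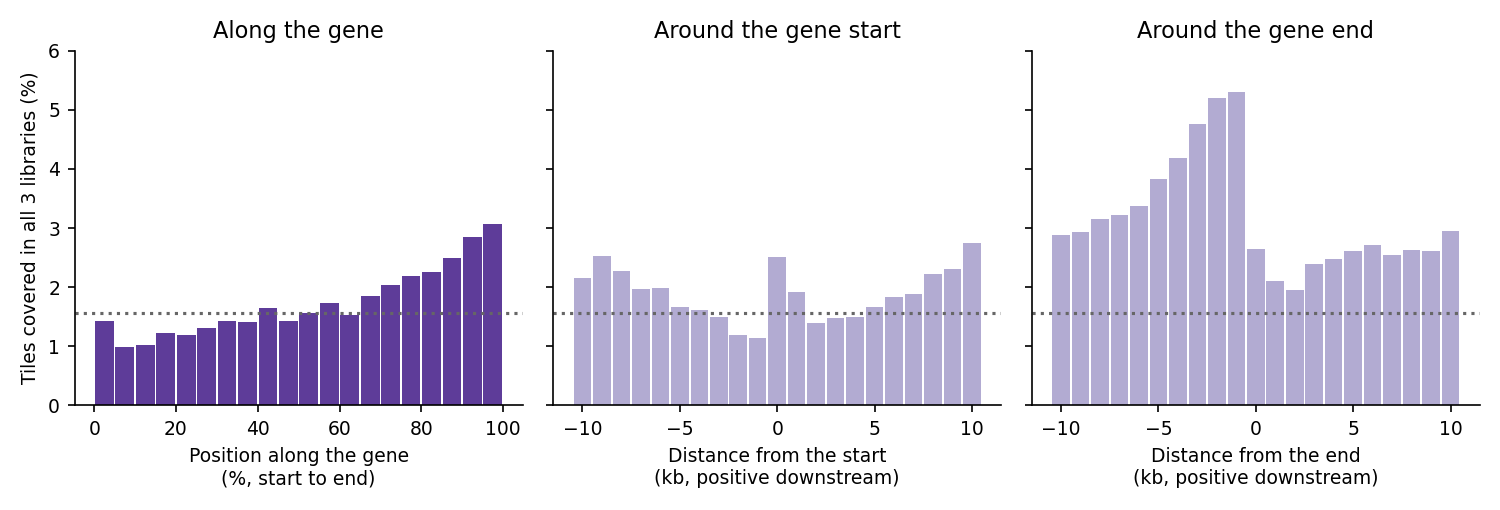
Share of tiles covered in all 3 libraries (y axis, %) along the gene from start to end in 5% steps, and by distance in kb from the gene start and the gene end. The genes are 10549 protein-coding genes of at least 10 kb with a RefSeq promoter, none on chromosome 18. The dotted line is the 1.56% of all tiles. Bars grow to 3.07% in the last 5% of the gene and reach 5.30% at 1 kb before the gene end.

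Of 31396 promoters with a RefSeq sequence, 1027 (3.27%) started in a covered tile. The share depended on the number of CpGs in the 300 bases from 250 before to 50 after the start. It was 0.527% with 0 to 2 CpGs, 5.36% with 8 to 10, 9.66% with 11 to 14, 4.23% with 20 to 29 and 2.88% with 30 to 67. Promoters starting in covered tiles had a median of 14 CpGs, against 7 over all promoters, and a median observed-to-expected CpG ratio of 0.603 against 0.389. A promoter's own 300 bases reached the minimum in all 3 libraries in 1052 cases, of which 824 also start in a covered tile. Among promoters with 30 to 67 CpGs, this window was covered in 8.93% in Braf Base medium, 6.71% in Braf full medium and 3.91% in EV, while at 11 to 14 CpGs the shares were 16.4%, 17.6% and 15.4%. The libraries thus lay close together at intermediate promoters and apart at the richest ones.

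**Figure D3:**
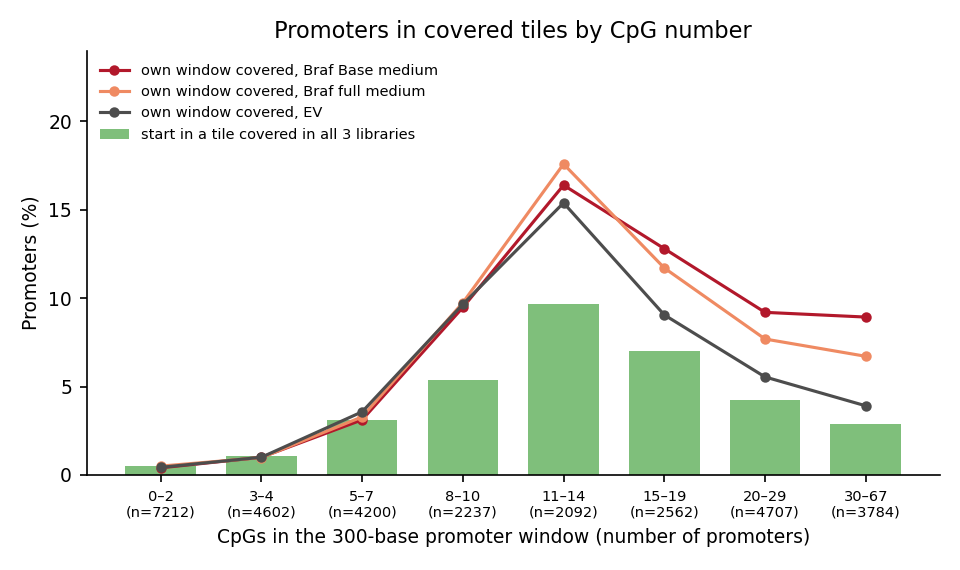
Promoters (y axis, %) by number of CpGs in the 300-base window (x axis, with the number of promoters). Bars show promoters that start in a tile covered in all 3 libraries, and lines show promoters whose own window is covered in each library. Bars peak at 9.66% for 11 to 14 CpGs, and the lines separate at 30 to 67 CpGs, where they lie at 8.93%, 6.71% and 3.91%.

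By gene type, the tile in the middle of the gene was covered in all 3 libraries for 776 protein-coding genes (3.76%), 658 of 8884 pseudogenes (7.41%), 36 of 435 transcribed pseudogenes (8.28%) and 79 of 1136 microRNA genes (6.95%). It was so for 1.41% of lncRNA genes, 0.855% of snoRNA genes and 0 of 394 V segments of antigen receptors. Pseudogenes thus stood highest and V segments lowest among the types with more than a few genes. Reads from near-identical copies may have been placed among several pseudogenes, and the sources used here do not say how such reads were placed.

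Of 919 microRNA hairpins with a RefSeq sequence, 71 (7.73%) lay in covered tiles, which make up 1.56% of all tiles. These hairpins fell in 61 distinct tiles, so some share a tile. The share in covered tiles was 5.07% with no CpG in the hairpin, 7.98% with 2 to 3, 17.7% with 4 to 5 and 19.4% with 6 to 20. The hairpins below, with CpGs in capitals, are 4 of the 10 with the most CpGs; Mir341 and Mir431 come from the imprinted Dlk1-Meg3 region of chromosome 12, Mir126a lies in the endothelial gene Egfl7 and Mir219a-2 in Cercam.
Mir341, chr12:109611500-109611595, forward strand: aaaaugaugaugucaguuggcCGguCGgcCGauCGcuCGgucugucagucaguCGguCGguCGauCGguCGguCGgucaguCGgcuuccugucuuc
Mir431, chr12:109590447-109590537, forward strand: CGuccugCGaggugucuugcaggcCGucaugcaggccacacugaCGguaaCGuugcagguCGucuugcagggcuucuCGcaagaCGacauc
Mir126a, chr2:26591357-26591429, forward strand: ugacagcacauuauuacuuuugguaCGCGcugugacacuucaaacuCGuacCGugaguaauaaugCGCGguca
Mir219a-2, chr2:29845631-29845727, reverse strand: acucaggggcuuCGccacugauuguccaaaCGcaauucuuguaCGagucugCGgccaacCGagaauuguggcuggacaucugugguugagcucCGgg

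Mir341 has 12 CpGs and its tile had 0.563 in Braf Base medium, 0.657 in Braf full medium and 0.512 in EV. Mir431, with 8 CpGs, had 2.36, 2.08 and 2.25, Mir126a, with 6, had 1.74, 1.64 and 1.77, and Mir219a-2, with 6, had 7.34, 5.35 and 6.04. The coverage of these tiles was similar in the 3 libraries and did not follow the number of CpGs in the hairpin, which is a small part of the tile. The other hairpins of the 10 had 6 to 9 CpGs: Mir8092, Mir323, Mir3077, Mir3968, Mir543 and Mir6340.

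Gene lists were read as the share of genes with a covered tile within 1 kb of either end, the start or the far end. This held for 2844 of 20665 protein-coding genes, 13.8%. The counts below describe the lists and were not tested. Genes used mainly in germ cells stood highest with 28 of 34, followed by clustered protocadherins with 40 of 57, imprinted genes with 22 of 32 and tumour suppressor and senescence genes with 11 of 29. Numbered zinc finger genes gave 75 of 386 and developmental transcription factors 17 of 98. Wnt antagonists gave 5 of 31, Hox genes 6 of 39 and DNA methylation enzymes 2 of 13. Housekeeping genes gave 4 of 28, endothelial and neural markers 2 of 12 and collagen genes 5 of 42. All of these were near the share of all genes. Lower shares were found for colonic differentiation genes (2 of 28), histone genes (4 of 72) and olfactory receptor genes (24 of 1103). None of 16 colon epithelium markers, 18 intestinal stem cell genes, 16 fibroblast and smooth muscle markers or 16 immune markers had one, while Tubb3, a neuronal tubulin, and Tie1, an endothelial receptor, were the 2 endothelial and neural markers that did. The best end tile of Cdh1, the epithelial cadherin, had 0.133, 0.216 and 0.201, that of Actb, a cytoskeletal actin, 0.0370, 0.0588 and 0.0402, and that of Pecam1, an endothelial adhesion molecule, 0.0667, 0.147 and 0.141. Col1a1, a fibroblast collagen, had 0.0148, 0.0882 and 0.813, so only its EV value passed the minimum. Both annotated starts of Ptprc, a leukocyte phosphatase, had 0 in Braf Base medium, 0.0196 in Braf full medium and 0 in EV. Gapdh, a glycolytic enzyme gene, had 0, 0.00980 and 0 at its start and is counted through a tile of its neighbour Iffo1 (0.771, 0.990 and 0.733).

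**Figure D4:**
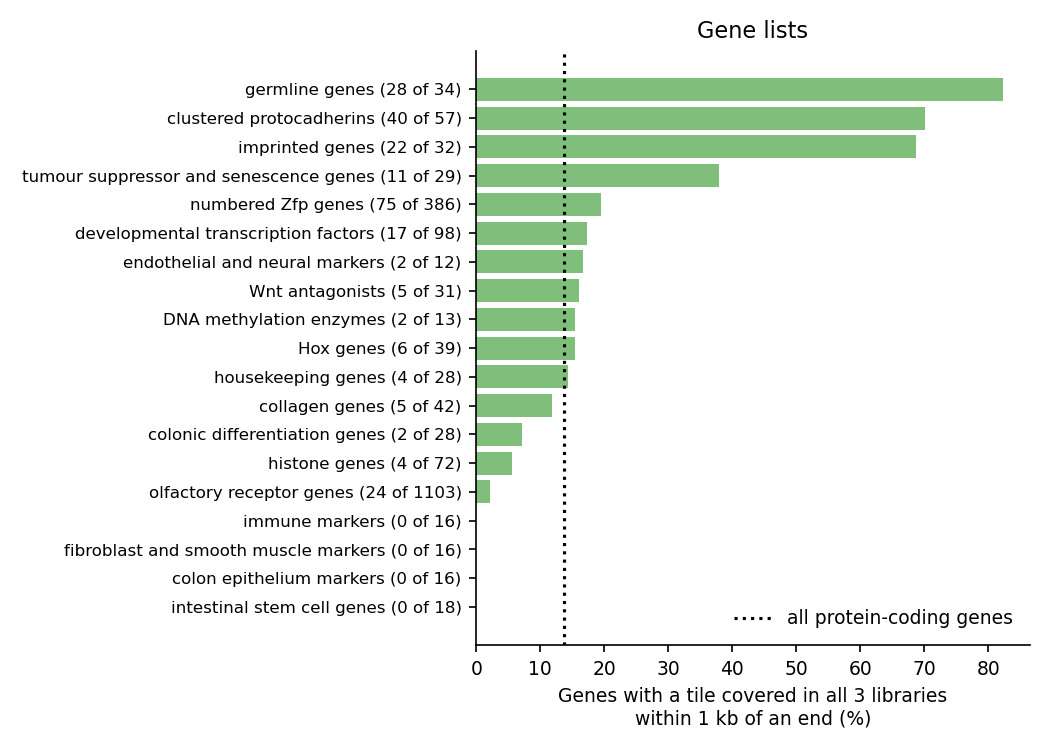
Share of genes (x axis, %) with a tile covered in all 3 libraries within 1 kb of either end, by gene list. Counts are in parentheses. The dotted line marks the 13.8% of all protein-coding genes; germline genes (28 of 34), clustered protocadherins (40 of 57) and imprinted genes (22 of 32) lie far to the right of it.

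Counting only gene starts, 606 of 16457 protein-coding genes with a RefSeq promoter start in a covered tile, 3.68%. Germline genes gave 25 of 31. Their start tiles ranged from 0.845 to 8.89 with a median of 3.22 in Braf Base medium, from 0.657 to 7.55 with a median of 2.77 in Braf full medium, and from 0.994 to 7.94 with a median of 3.38 in EV. Meioc, a meiotic prophase regulator (chr11:102665001-102666000), had 8.21, 7.55 and 7.94, and D1Pas1, a testis helicase, had 6.99, 5.997 and 6.41. Dazl, an RNA-binding protein of germ cells, had 8.89, 5.77 and 6.19 and Tdrd1, a Tudor protein of the piRNA pathway, 6.12, 5.49 and 7.77. Sycp1, of the synaptonemal complex, had 7.99, 5.85 and 5.63 in its best tile, and Mael, of the piRNA pathway, had 5.02, 4.81 and 4.49. Of these 25 start tiles 1 was higher and none lower in Braf Base medium than in EV, and none was higher and 1 lower in Braf full medium than in EV. Over all 38531 covered tiles 1.37% were higher and 3.98% lower in Braf Base medium than in EV, and 0.911% and 0.875% in Braf full medium than in EV. The 6 genes without a covered start tile, named after their values were seen, were Tex101, Piwil1, Piwil4, Hormad2, Zfp42 and Mei1. Tex101 missed the minimum in Braf full medium (0.519, 0.421 and 0.693). Piwil1 (0.222, 0.363 and 1.03), Piwil4 (0.193, 0.412 and 0.502) and Hormad2 (0.467, 0.412 and 1.10) reached it in EV alone. Their log2 ratios of Braf Base medium over EV were -1.96, -1.15 and -1.14. The counts of higher and lower start tiles leave these starts out by the rule. Zfp42 missed the minimum in every library (0.274, 0.323 and 0.271), and Mei1 stood near background in all 3 (0.0296, 0.0490 and 0.100).

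Imprinted genes gave 15 of 24 at their starts, in 14 distinct tiles because Zrsr1 and Commd1 share a start tile. Fkbp6 stands in both the germline and the imprinted list, and Cdkn1c in both the imprinted and the tumour suppressor list. The start tiles had medians of 3.36 in Braf Base medium, 3.12 in Braf full medium and 2.59 in EV. Cdkn1c, a cell cycle inhibitor expressed from the maternal allele, had 8.64, 5.51 and 5.80 at the end with the higher coordinate. Kcnq1ot1, the non-coding RNA of the same imprinted cluster, had 6.84, 5.23 and 5.64 in its best tile. Its start tile had 2.82, 2.29 and 2.64. The start tile of Zrsr1 had 6.82, 4.68 and 4.70. Peg10 and Sgce share a tile that had 6.52, 4.37 and 4.46. Peg3 had 2.34, 1.74 and 2.02 at its start and the start tile of Snrpn 1.34, 0.862 and 0.843, while H19 missed the minimum in both Braf libraries (0.200, 0.323 and 0.512 at its best end tile). The median log2 ratio over the 15 starts was 0.53 for Braf Base medium over EV and 0.02 for Braf full medium over EV, against -0.23 and -0.12 over all covered tiles, and none of the 15 passed a log2 ratio of 1 or -1 in either comparison. Grb10, an adaptor protein gene named after its values were seen, was left out only by the EV library, with 4.61, 1.57 and 0.241 at its start. Rasgrf1, a Ras exchange factor gene named likewise, reached the minimum in Braf Base medium alone, with 0.674, 0.0588 and 0.0301.

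Other lists gave few starts. Among the tumour suppressor and senescence genes, 3 of 21 start in covered tiles: Dapk1 (5.03, 3.10 and 0.763), Timp3, an inhibitor of metalloproteinases (4.05, 4.65 and 1.65), and Hic1, a transcriptional repressor (4.58, 3.61 and 1.71). In each the EV library was the lowest. At other tiles of that list an end of Cdkn1c, of Stk11, in a tile of its neighbour Cbarp (7.38, 5.32 and 5.70), of Rb1, within the segment of chromosome 14 described below (3.35, 4.54 and 4.62), and of Rassf5 (3.83, 3.75 and 2.84) was covered in every library. The developmental factors that start in covered tiles were 5 of 67, among them Foxd3, a neural crest factor (7.28, 4.99 and 1.99), Tbx1 (4.53, 4.06 and 2.30), Gata5 (2.32, 2.57 and 0.833), Phox2a (2.85, 3.21 and 2.48) and Pax8 (0.541, 1.04 and 0.663). Hoxa2 (4.96, 4.44 and 4.66) and Hoxa3 (4.13, 3.49 and 3.94) were the only 2 of 22 Hox genes with such a start, and Vcp (0.919, 0.872 and 1.16) the only 1 of 21 housekeeping genes. Of Wnt antagonists, 1 of 19 started in a covered tile, Kremen2 (0.941, 2.29 and 1.78). These starts were named after their values were seen. Dapk1, Timp3, Hic1, Foxd3, Tbx1 and Gata5 had less coverage in EV than in either Braf library, while both Hox genes differed little. Phox2a was lower in EV by less, at log2 ratios of 0.19 for Braf Base medium and 0.37 for Braf full medium over EV. For Braf Base medium over EV, the log2 ratios of Pax8, Vcp and Kremen2 were -0.27, -0.32 and -0.88. The median over all covered tiles was -0.23, and none of these starts was called lower than in EV. Kremen2 was called lower in Braf Base medium than in Braf full medium, at a log2 ratio of -1.23.

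At gene ends of other lists, Foxc1 had 10.9, 8.46 and 8.68, and Pitx1 6.33, 6.36 and 7.44. Kremen2, a Dickkopf receptor, had 7.02, 5.49 and 5.50, Tcf7l1, a repressor of Wnt targets, 3.12, 2.30 and 2.51, and Sfrp2, a secreted Wnt antagonist, 1.39, 1.40 and 1.83. Zfp787 had 9.54, 7.76 and 7.53, and Olfr1055, an olfactory receptor, 5.22, 5.79 and 6.32. None of these tiles passed a log2 ratio of 1 or -1 in any of the 3 comparisons.

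Single genes differed in how many of their tiles were covered. Flg had 13 of 20 tiles covered (65.0%), Shh, the sonic hedgehog ligand gene, 6 of 10, and Jak3, a cytokine receptor kinase, 8 of 15; these genes were picked by rank after their values were seen. Their means over the covered tiles were 9.36, 7.24 and 7.23 in Flg, 1.04, 1.11 and 1.36 in Shh, and 3.15, 2.87 and 2.30 in Jak3. Among larger genes, Tiam1, a Rac exchange factor, held 37 covered tiles, Cit, which encodes citron kinase, 36 of 164, and Fat1, an atypical cadherin, 26. At least 1 covered tile lay in 7407 of 20665 protein-coding genes, and 10 or more in 209.

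The clustered protocadherins of chromosome 18 encode neuronal adhesion molecules. In the alpha and gamma clusters variable exons are joined to shared constant exons, so ends of several genes fall in the same tiles. The alpha cluster held 36 covered tiles of 259, the beta cluster 23 of 256 and the gamma cluster 38 of 180. Median coverage of those tiles was 2.36, 2.09 and 2.46 in the alpha cluster, 1.16, 1.36 and 1.48 in the beta cluster, and 1.90, 1.70 and 1.496 in the gamma cluster. Coverage was lowest in Braf Base medium in the beta cluster and highest there in the gamma cluster, with median log2 ratios of Braf Base medium over EV of -0.27 and 0.27.

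The coverage between covered tiles also differed from library to library along the genome, and 4 parts are described here. On chromosome 14 from 70 Mb, the median log2 ratio of Braf Base medium over EV was -0.55 in 628 covered tiles, where the background ratio relative to the whole genome was -0.86, and 85 of these tiles (13.5%) were called lower, against 3.98% of all covered tiles. On chromosome 3 from 80 to 140 Mb it was 0.14 in 919 covered tiles and 0.56 in the background. The background was also raised on both sides of this segment. In steps of 10 Mb from 50 to 80 Mb it was 0.56, 0.48 and 0.47, with medians of -0.05, -0.16 and -0.26 in covered tiles. From 140 to 160 Mb it was 0.54 and 0.33, with medians of 0.01 and -0.22. On chromosome 4 from 150 Mb the ratio of Braf full medium over EV was -0.85 in 139 covered tiles and -1.74 in the background, and 49 of the tiles (35.3%) were called lower, against 0.875% of all covered tiles. On chromosome 19 it was -0.40 in 1027 covered tiles and -0.41 in the background, with 57 (5.55%) called lower. The background ratios are relative to the whole genome, but the medians of covered tiles are not. Over all covered tiles these medians were -0.23 for Braf Base medium over EV and -0.12 for Braf full medium over EV. The sizes of the covered-tile and background values are therefore not directly comparable. Covered tiles and background were compared over 251 segments of 10 Mb, which share libraries, depth and base composition. Pearson's r between the median ratio of the covered tiles and the background ratio was 0.509 for Braf Base medium over EV. It was 0.288 for Braf full medium over EV and 0.821 for Braf Base medium over Braf full medium. Taken relative to all covered tiles, the covered-tile ratio had the sign of the background in 143, 106 and 198 segments, in that order. On chromosome 5 from 110 to 120 Mb, for example, the background of Braf full medium over EV was -0.75. The covered tiles there stood 0.055 above the median of all covered tiles. Other segments outside the 4 parts differed too. The background of Braf full medium over EV was -0.59 on chromosome 16 from 90 to 98 Mb. On chromosome 7 from 50 to 60 Mb it was 0.54. Of the tiles named above, Slc27a3, Dchs2, Flg, Sycp1 and Sfrp2 lie in the segment of chromosome 3, Pcdh8, Rb1 and the tile far from Fgf14 in that of chromosome 14, Camta1 in that of chromosome 4, and Fads3 and Tdrd1 on chromosome 19. The part of the number of genome copies in these ratios was not tested. Without the 4 segments, 223 tiles were called lower in Braf full medium than in EV, against 337 with them.

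**Figure D5:**
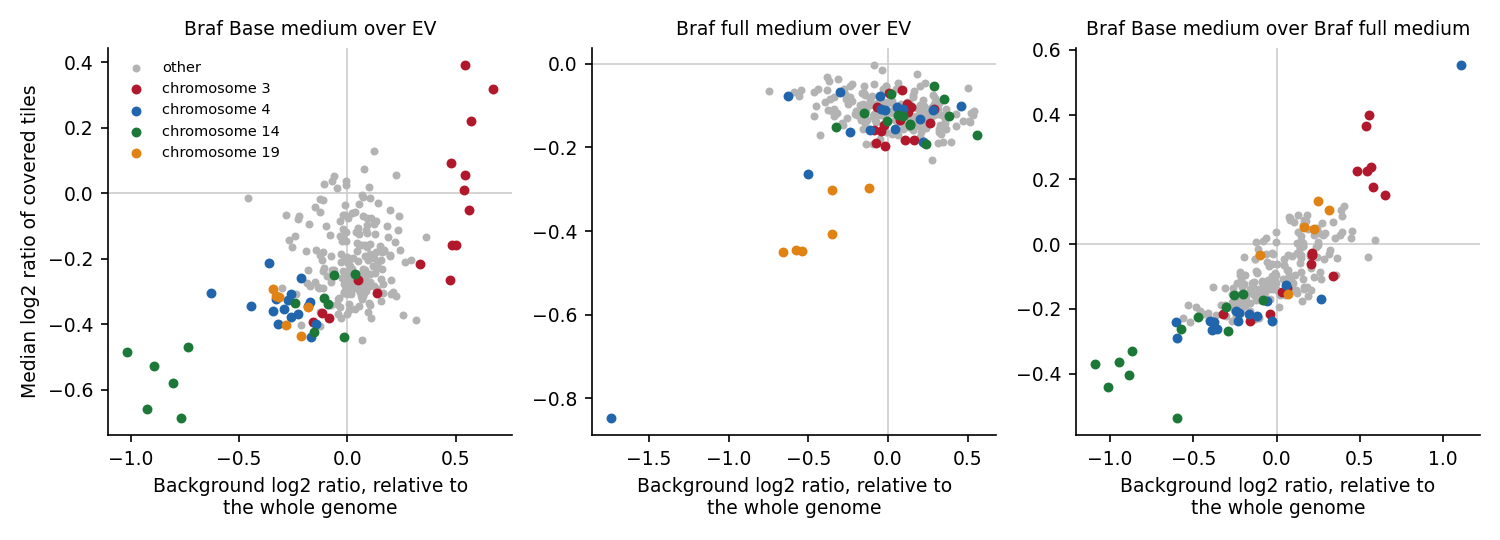
Median log2 coverage ratio of the covered tiles (y axis) against the background log2 ratio relative to the whole genome (x axis) in 251 segments of 10 Mb, for each pair of libraries. Points of chromosomes 3, 4, 14 and 19 are coloured; chromosome 14 has the lowest ratios of Braf Base medium over EV, and a segment of chromosome 4 lies apart at -1.74 and -0.85 in Braf full medium over EV.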

How the data were processed

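Methylated DNA was captured by MBD-seq in 3 libraries, 1 per group. Per the labels, 50-bp single reads were sequenced; Bowtie2 and mm10 stand in the submitters' processing notes with no version. The sources used here do not say how reads became binned values. The authors deposited log2 values in 12313737 bins, each 200 bp long, over chromosomes 1 to 19; X and Y were left out of the analysis. On the linear scale the values were, within a tolerance of 0.001 of a step, a floor of 0.0153 plus whole steps of 0.0370 in Braf Base medium, 0.0490 in Braf full medium and 0.0502 in EV, read as overlaps; coverage is the value above the floor. Reads were estimated from the overlaps at 2.48, 2.42 and 2.49 overlaps per read.

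Tiles, runs, gene positions, promoters and lists were computed with Python 3.11.15, numpy 2.4.6, pandas 2.3.3 and scipy 1.17.1, and checked on simulated data, where tiles well above or below the minimum were recovered while tiles close to it could fall on either side through counting noise. Annotation, promoters and microRNA hairpins are RefSeq for GRCm38.p6, which mm10 denotes; promoters on chromosome 18 were not used here. No count model was run and no test was made, because each group holds 1 library.

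The tiles, the gene lists (germline, imprinted, clustered protocadherin, tumour suppressor and senescence, Zfp, developmental factor, Hox, Wnt antagonist, DNA methylation enzyme, housekeeping, collagen, histone, olfactory receptor, colonic differentiation, stem cell, microRNA and cell type markers) and the comparisons were chosen with earlier results of these data known. Of 1103 microRNA genes, 148 had a covered tile within 1 kb of an end. Named were the 8 longest runs, the 8 highest tiles, the 5 largest and 5 smallest ratios of each comparison, tiles beside the minimum, up to 5 genes per list by their lowest library, a short list of fixed genes, up to 10 hairpins and 6 promoters by CpG number; other names are said to be chosen after their values were seen. Some genes taken by the rule are left unnamed, though counted.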

Additional observations from a re-analysis of the deposited data

How the results depend on the processing

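No paired analysis was possible because each group holds 1 library. With a minimum of 1 in each library, 22849 tiles remained, 59.3% of the 38531; 51.3% lay in a gene and 7.95% near a gene end, 1726 genes had one at an end, the medians of Braf Base medium over EV and Braf full medium over EV were -0.21 and -0.10, and called tiles numbered 209 higher and 310 lower, 124 and 59, and 49 and 24 for Braf Base medium over EV, Braf full medium over EV and Braf Base medium over Braf full medium. With equal library totals, 31664 tiles met the minimum, 31425 of them among the 38531, and 52.1% lay in a gene; the 3 medians were -0.056, -0.78 and 0.73, the last reversed, and calls that moved were 641 lower for Braf Base medium over EV, 101 higher and 5983 lower for Braf full medium over EV, and 6807 higher and 14 lower between the media. The background of the Braf full medium library is scaled with its total there. Subtracting the background moved the medians of the last pair of comparisons to -0.15 and -0.073. A pseudocount 4 times as large gave medians of -0.21, -0.11 and -0.092, with 775, 159 and 96 lower and 104 higher in the last comparison. Without 4 segments the medians were -0.11 for Braf full medium over EV and for Braf Base medium over Braf full medium, and 223 tiles were lower in Braf full medium than in EV. Without the Braf full medium library, 54.96% of 40165 tiles lay in a gene and the median of Braf Base medium over EV was -0.22. Both of these last settings were chosen after seeing the data. The cause of these shifts was not tested. At the minimum, 27 reads against 20 leave a ratio between 0.537 and 1.87, so smaller differences were not detectable in 1 tile.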
